A study of Rattus norvegicus with 12 samples.

Results

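The collagen genes of rat pancreatic islets are described here in offspring whose growth before birth was limited by surgery, and in controls. The members are all rows of the deposited count table whose gene symbol reads Col, a number, a and a number, with the transcript of highest mean count taken for each symbol. This gave 44 collagen genes of 25888 symbols in the table, and all 44 had enough counts to be tested. They comprise 11 fibrillar collagens, 8 collagens of basement membranes and 25 others. The markers given with the label, Col1a1, Col3a1 and Col4a1, are members by their symbols, so they do not check it. They were counted in every library.

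Collagens are secreted proteins built of chains that wind into triple helices. Fibrillar collagens such as types I, III and V assemble into the fibres of connective tissue and are made mainly by fibroblasts and related mesenchymal cells. Type IV collagen forms the sheet-like network of basement membranes, to which collagens XV and XVIII are attached, and in the pancreas it surrounds capillaries, ducts and acini and lies between islet capillaries and endocrine cells. Other members decorate fibrils, form beaded filaments (collagen VI), sit in cell membranes or anchor epithelia.

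The animals were Sprague Dawley rats. Intrauterine growth restriction (IUGR) was produced by tying the uterine arteries on both sides at embryonic day 18, and control litters were reduced to 8 pups. Islets were freed with collagenase passed through the pancreatic duct and purified on a density gradient, so the libraries hold islets with whatever capillaries, connective tissue and exocrine cells remained attached. The 4 groups were control and IUGR islets at 2 weeks and at 10 weeks of age, with 3 libraries each. The labels call these biological replicates but give neither sex, litter, pooling of animals nor whether control dams had sham surgery, so p-values measure the spread between these libraries. Levels are CPM (counts divided by the library total, on the usual scale) after scaling by the trimmed mean of M-values (TMM), which sets the typical transcript level between libraries. Differences are log2 fold changes with a standard error. P-values are from edgeR's quasi-likelihood test on all 12 libraries, adjusted by Benjamini and Hochberg over 20733 transcripts, and an adjusted p under 0.05 passed. Read counts grow with transcript length, which the files do not give, so levels are compared between groups and not between genes.

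Library totals ran from 30396759 to 64201627 counts. Transcripts of acinar cells, the enzyme-making cells around islets, took 21.7% to 42.3% of counts in 2-week controls and 4.38% to 9.38% in 2-week IUGR libraries. At 10 weeks they took 14.0% to 47.5% in controls and 0.625% to 2.33% in IUGR libraries. The TMM factors ran from 0.440 to 1.40, so scaled and unscaled values differ. Of the collagen genes, 26 had at least 100 counts in every library and 6 had fewer than 10 in at least 1 library. Col26a1 had 0 counts in 2 libraries, where the limit that 3 counts would set is 0.0588 CPM (control replicate 3 at 2 weeks) and 0.1095 CPM (control replicate 3 at 10 weeks), which covers counting error only.

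The make-up of the collagen RNA differed between the ages and, at 10 weeks, between IUGR and control islets. Fibrillar genes held 68.4% ± 1.64 of collagen counts in 2-week controls and 69.5% ± 1.92 in 2-week IUGR islets (SD, n = 3 each). At 10 weeks they held 46.5% ± 2.80 in controls and 35.0% ± 0.415 in IUGR islets (SD, n = 3 each). The 10-week controls had shares of 43.5%, 49.1% and 46.9% and the 10-week IUGR libraries 35.1%, 35.4% and 34.6%, so the groups did not overlap. Basement membrane genes held 15.5% ± 1.10 and 15.5% ± 1.36 at 2 weeks in controls and IUGR islets. They held 29.1% ± 1.90 and 35.0% ± 3.02 at 10 weeks (SD, n = 3 each). These shares are ratios within a library, so they do not depend on the scaling, but long and abundant transcripts weigh most in them. Col3a1 alone held 47.4% ± 1.61 of collagen counts in 2-week controls, 27.8% ± 4.26 in 10-week controls and 12.7% ± 0.982 in 10-week IUGR islets (SD, n = 3 each). No test was run on these shares.

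**Figure D1:**
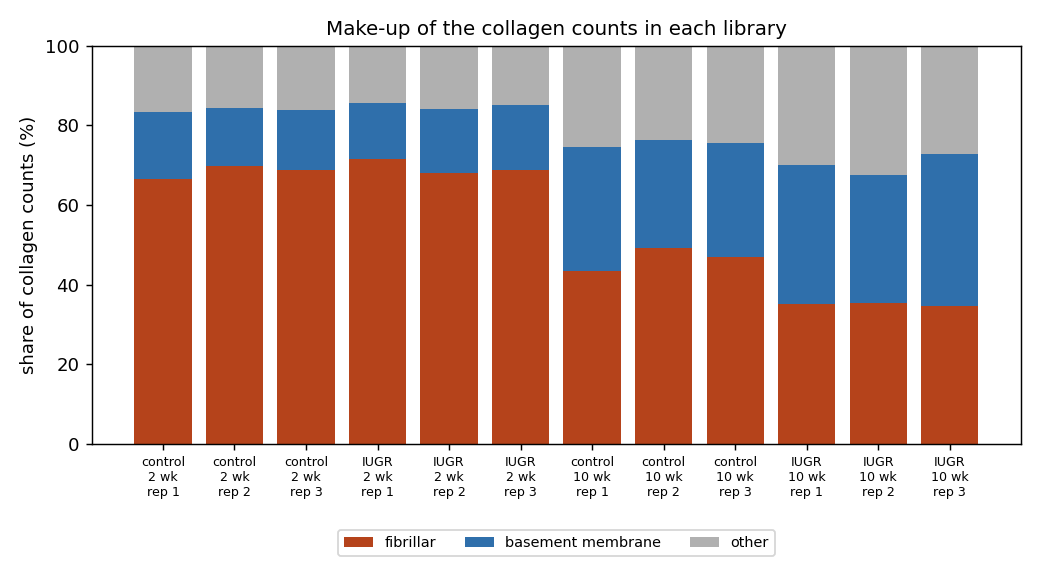
Share of collagen counts (%, vertical axis) in fibrillar, basement membrane and other collagen genes, as stacked bars for each of the 12 libraries. The fibrillar part is 66.6% to 71.7% in the 2-week libraries, 43.5% to 49.1% in the 10-week controls and 34.6% to 35.4% in the 10-week IUGR libraries.

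Collagen genes together took a small part of all counts. They took 0.518% to 1.29% in 2-week controls and 1.82% to 2.08% in 2-week IUGR islets. At 10 weeks they took 0.103% to 0.373% in controls and 0.166% to 0.234% in IUGR islets, so the 10-week groups overlapped in this unscaled share. After TMM scaling the summed level was 2102 to 3485 CPM in 10-week controls and 1412 to 2020 CPM in 10-week IUGR islets, and did not overlap. In whole islets fewer collagen-making cells and less collagen RNA per cell cannot be told apart.

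Summed over the 12 libraries, the fibrillar genes with the highest counts were Col3a1, Col1a2 and Col1a1, which encode types III and I. These are the fibre collagens of loose connective tissue, and counts also depend on transcript length. Promoter stretches of Col1a2, which fell at 10 weeks in IUGR islets, and Col27a1, which rose, are shown because these genes stand for the opposite directions within the class. Each is the RefSeq sequence of 250 bases before the annotated start, assembly GRCr8, plus strand. Capitals mark the letters ATTGG, the CCAAT box read on the other strand, in the first, and the GC box letters GGGCGG in the second. The marked letters do not go with direction. Promoter windows of Col5a1 and Col5a3, which fell at 10 weeks, also held the GC box letters, and that of Col5a3 held both. The Col1a2 stretch lies at chr4:33518307-33518556 and that of Col27a1 at chr5:81662658-81662907.
Col1a2: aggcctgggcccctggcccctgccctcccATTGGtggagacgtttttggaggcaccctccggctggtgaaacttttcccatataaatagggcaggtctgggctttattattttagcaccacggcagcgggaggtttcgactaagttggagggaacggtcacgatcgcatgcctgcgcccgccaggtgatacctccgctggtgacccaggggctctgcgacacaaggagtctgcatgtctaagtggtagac
Col27a1: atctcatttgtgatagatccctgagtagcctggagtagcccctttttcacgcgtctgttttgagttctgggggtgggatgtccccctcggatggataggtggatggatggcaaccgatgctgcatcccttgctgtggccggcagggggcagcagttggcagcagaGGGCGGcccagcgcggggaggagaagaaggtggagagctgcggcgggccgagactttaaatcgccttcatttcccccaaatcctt

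Col1a1, the alpha-1 chain of type I collagen, measured 327, 609.6 and 491 CPM in 2-week controls, 955, 963 and 669 CPM in 2-week IUGR islets, 50.9, 141 and 70.9 CPM in 10-week controls and 10.5, 8.69 and 13.7 CPM in 10-week IUGR islets. Col1a2, its partner chain, measured 622, 1095 and 942 CPM in 2-week controls, 1534, 1510.1 and 1378 CPM in 2-week IUGR islets, 104, 207 and 183 CPM in 10-week controls and 33.5, 28.9 and 45.5 CPM in 10-week IUGR islets. For both chains the 4 groups did not overlap, with 2-week IUGR islets highest and 10-week IUGR islets lowest. The ratio of Col1a1 to Col1a2 counts within a library was -0.98 ± 0.41 on the log2 scale in 10-week controls and -1.71 ± 0.04 in 10-week IUGR islets (SD, n = 3 each), so the ratio was lower in the latter. Col3a1, the chain of type III collagen, measured 3066, 5471 and 4687 CPM in 2-week controls, 7493, 6720.2 and 6396 CPM in 2-week IUGR islets, 483, 1017 and 1084 CPM in 10-week controls and 191, 195 and 244 CPM in 10-week IUGR islets. Its groups stood in the same order and did not overlap.

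Type V collagen sits inside type I fibrils and sets their width. Col5a2 measured 193, 296 and 262 CPM in 2-week controls, 365, 375 and 343 CPM in 2-week IUGR islets, 44.2, 80.2 and 84.3 CPM in 10-week controls and 26.2, 28.9 and 35.7 CPM in 10-week IUGR islets. Col5a3, a less widespread chain of the same type, measured 41.6, 55.9 and 57.1 CPM in 2-week controls, 101, 91.3 and 86.8 CPM in 2-week IUGR islets, 13.9, 34.5 and 26.8 CPM in 10-week controls and 5.01, 5.88 and 7.54 CPM in 10-week IUGR islets. Both genes had 4 separate groups in the order seen for type I. Col5a1 ran from 9.49 to 267 CPM over the libraries with the same order of groups.

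Col27a1, a fibrillar collagen best known from cartilage, had the opposite order at 10 weeks. It measured 74.4, 75.5 and 97.9 CPM in 2-week controls, 70.5, 65.6 and 60.5 CPM in 2-week IUGR islets, 181, 155 and 131 CPM in 10-week controls and 258, 206 and 313 CPM in 10-week IUGR islets. All groups were apart, with 10-week IUGR islets highest. The gene held 0.927% ± 0.227 of collagen counts in 2-week controls, 0.455% ± 0.0111 in 2-week IUGR islets, 5.60% ± 2.62 in 10-week controls and 15.5% ± 0.863 in 10-week IUGR islets (SD, n = 3 each). The remaining fibrillar genes, Col2a1, Col11a1, Col11a2 and Col24a1, did not pass in either comparison of IUGR with control islets. Col2a1, the main collagen of cartilage, was at most 0.494 CPM.

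**Figure D2:**
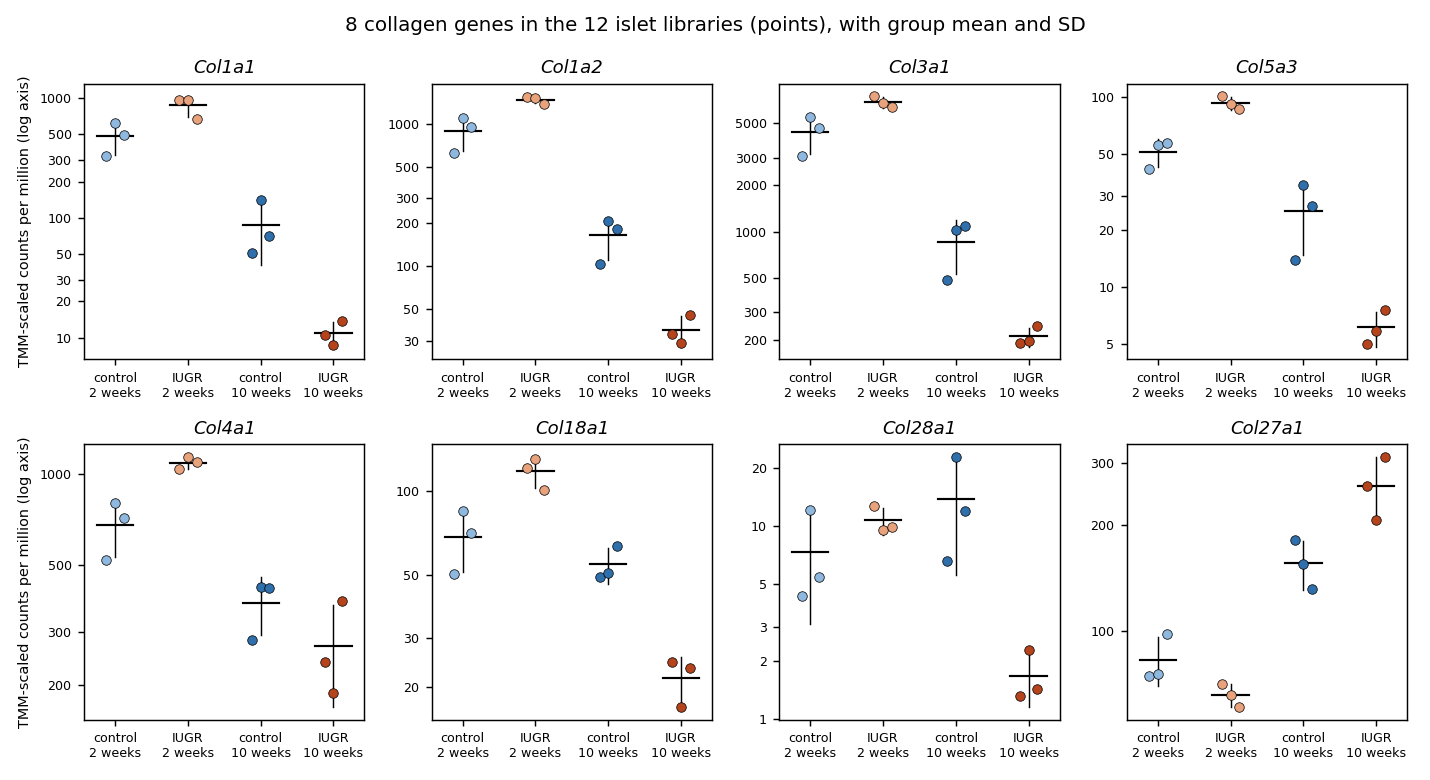
TMM-scaled CPM on a log axis for 8 collagen genes in the 12 libraries. Points are libraries, horizontal lines group means and vertical lines 1 SD to each side of the mean (n = 3 per group). Col1a1, Col1a2, Col3a1 and Col5a3 are highest in 2-week IUGR islets and lowest in 10-week IUGR islets, Col4a1 overlaps between the 10-week groups, and Col27a1 is highest in 10-week IUGR islets.

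Among the basement membrane collagens the type IV chains Col4a1 and Col4a2 had overlapping 10-week groups. Col4a1, the alpha-1 chain of type IV collagen found in nearly all basement membranes, measured 518, 802 and 718 CPM in 2-week controls, 1043, 1141 and 1094 CPM in 2-week IUGR islets, 281, 422 and 419 CPM in 10-week controls and 237, 188 and 381 CPM in 10-week IUGR islets. The 2-week groups were apart and the 10-week groups overlapped. Col4a2, its partner chain, ran from 340.4 to 459 CPM in 2-week controls, 605 to 673 CPM in 2-week IUGR islets, 173 to 266 CPM in 10-week controls and 151 to 243 CPM in 10-week IUGR islets. The ratio of Col1a1 to Col4a1 counts within a library, on the log2 scale, was -0.54 ± 0.13 in 2-week controls, -0.36 ± 0.31 in 2-week IUGR islets, -2.20 ± 0.54 in 10-week controls and -4.57 ± 0.19 in 10-week IUGR islets (SD, n = 3 each). This ratio does not depend on scaling, and its values did not overlap between any 2 groups of different age or between the 10-week groups.

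The type IV genes lie in pairs that start close together and point away from each other. The stretch between the annotated starts of Col4a1 and Col4a2 and the stretch shared by the promoter windows of Col4a3 and Col4a4 are shown, because the log2 fold changes of each pair had the same sign in all 5 comparisons. All 8 basement membrane genes, Col15a1 and Col18a1 included, also shared 1 sign within each comparison, so this is not particular to the pairs. Both are RefSeq sequences of assembly GRCr8, plus strand, at chr16:84885521-84885596 (76 bases) and chr9:91323740-91323827 (88 bases), and capitals mark CCGCCC, the GC box on the other strand.
Col4a1/Col4a2: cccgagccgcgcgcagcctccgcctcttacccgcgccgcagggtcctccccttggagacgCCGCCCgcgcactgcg
Col4a3/Col4a4: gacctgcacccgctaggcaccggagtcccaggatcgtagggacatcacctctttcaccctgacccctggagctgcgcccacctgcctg

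Across the comparisons of IUGR with control islets, Col4a1 and Col4a2 had log2 fold changes of 0.69 and 0.66 at 2 weeks and of -0.48 and -0.24 at 10 weeks, none of which passed. Col4a3 and Col4a4, chains of the basement membranes of kidney, lung and cochlea, had 0.26 and 0.42 at 2 weeks and -0.21 and -0.40 at 10 weeks, and none passed. Col4a5 measured 26.2, 31.2 and 30.2 CPM in 2-week controls, 43.4, 40.1 and 31.5 CPM in 2-week IUGR islets, 14.5, 14.3 and 17.7 CPM in 10-week controls and 7.32, 7.60 and 9.79 CPM in 10-week IUGR islets. Its groups were all apart. The starts of Col4a5 and its partner Col4a6 lie 1414 bases apart, and Col4a6 had the same order of groups, from 14.5 CPM in a 2-week IUGR library to 1.30 CPM in a 10-week IUGR library.

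Collagens XV and XVIII carry sugar side chains and can be cleaved to fragments that act on blood vessels, endostatin in the case of XVIII. Col18a1 measured 50.5, 84.6 and 70.8 CPM in 2-week controls, 121, 130.3 and 101 CPM in 2-week IUGR islets, 49.2, 51.0 and 63.9 CPM in 10-week controls and 24.5, 16.9 and 23.3 CPM in 10-week IUGR islets. Its 2 control groups overlapped, with both IUGR groups apart from them on opposite sides. Col15a1 ran from 146 to 193 CPM in 2-week controls, 220 to 276 CPM in 2-week IUGR islets, 106 to 197 CPM in 10-week controls and 64.0 to 83.1 CPM in 10-week IUGR islets.

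Collagen VI forms beaded filaments between cells and the wider matrix, and its main chains are encoded by Col6a1, Col6a2 and Col6a3. Col6a3 measured 145, 246 and 214 CPM in 2-week controls, 335, 399 and 297 CPM in 2-week IUGR islets, 56.9, 115 and 104 CPM in 10-week controls and 29.2, 26.97 and 33.7 CPM in 10-week IUGR islets. Its groups did not overlap, and Col6a1 and Col6a2 had the same order. Col6a6, an alternative chain, measured 123, 186 and 136 CPM in 2-week controls, 180.2, 194 and 152 CPM in 2-week IUGR islets, 52.5, 49.5 and 67.0 CPM in 10-week controls and 60.4, 77.2 and 75.0 CPM in 10-week IUGR islets. Here the 2 ages were apart while the IUGR and control groups overlapped at each age. Col6a4, another alternative chain, was low, with 6 to 49 counts per library. It measured 0.944, 0.958 and 0.902 CPM in 2-week controls, 0.269, 0.310 and 0.217 CPM in 2-week IUGR islets, 0.190, 0.400 and 0.365 CPM in 10-week controls and 0.529, 0.548 and 0.519 CPM in 10-week IUGR islets. IUGR values lay below control at 2 weeks and above control at 10 weeks.

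Fibril-associated collagens lie on the surface of fibrils and link them to other matrix. Col14a1 measured 158, 281 and 269.7 CPM in 2-week controls, 403, 407 and 351 CPM in 2-week IUGR islets, 69.8, 74.8 and 89.3 CPM in 10-week controls and 56.4, 60.1 and 62.1 CPM in 10-week IUGR islets. Col16a1, found near basement membranes and in dermis, measured 68.3, 88.3 and 93.8 CPM in 2-week controls, 124, 119 and 133 CPM in 2-week IUGR islets, 70.6, 84.4 and 65.2 CPM in 10-week controls and 122, 108 and 154 CPM in 10-week IUGR islets. Col16a1 differed from the type I pattern in having IUGR values above control values at both ages. Col20a1 measured 11.2, 7.86 and 7.30 CPM in 2-week controls, 5.22, 5.65 and 5.09 CPM in 2-week IUGR islets, 3.77, 2.99 and 3.18 CPM in 10-week controls and 1.86, 2.64 and 2.35 CPM in 10-week IUGR islets. Its IUGR values lay below the control values at both ages. Col9a1, a chain of cartilage fibrils, measured 10.2, 14.0 and 17.9 CPM in 2-week controls, 10.2, 13.4 and 10.6 CPM in 2-week IUGR islets, 22.8, 22.4 and 18.7 CPM in 10-week controls and 49.7, 38.6 and 44.1 CPM in 10-week IUGR islets. The 2-week groups overlapped and the 10-week IUGR islets were highest.

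The short-chain collagens form hexagonal networks under endothelium and cornea. Col8a1 measured 3.43, 4.28 and 4.90 CPM in 2-week controls, 7.30, 7.42 and 5.59 CPM in 2-week IUGR islets, 5.96, 6.98 and 6.02 CPM in 10-week controls and 5.79, 5.43 and 6.75 CPM in 10-week IUGR islets. Only the 2-week controls stood apart, below the other 3 groups. Col8a2, its relative, measured 5.78, 6.22 and 6.37 CPM in 2-week controls, 8.09, 7.23 and 8.62 CPM in 2-week IUGR islets, 1.71, 3.20 and 2.56 CPM in 10-week controls and 0.835, 0.922 and 0.692 CPM in 10-week IUGR islets. Its groups were all apart in the order of type I. Col28a1, which is known from nerve sheaths, measured 4.35, 12.1 and 5.43 CPM in 2-week controls, 12.6, 9.56 and 9.82 CPM in 2-week IUGR islets, 6.59, 22.7 and 11.9 CPM in 10-week controls and 1.31, 2.27 and 1.43 CPM in 10-week IUGR islets. The 10-week IUGR libraries lay below all others, and the control values spread widely.

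At 10 weeks, both chains of type I collagen, the chain of type III and the 3 chains of type V were among 16 collagen genes that fell in IUGR islets against controls, and 3 collagen genes rose. In this comparison 27.9% of all tested transcripts passed, 12.4% as higher and 15.5% as lower. Of the 44 collagen genes, 3 rose and 16 fell. The median log2 fold change was -0.47 for the collagen genes and -0.01 for all transcripts tested. Of the collagen genes, 18 had all IUGR libraries below all controls (18.9% of transcripts) and 5 had them above (21.3%).

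Of the 11 fibrillar genes 6 fell, and these were both chains of type I, the chain of type III and the 3 chains of type V. Col1a1 fell by 3.00 ± 0.38 on the log2 scale, which is 7.98-fold (adjusted p = 0.00116), and Col1a2 fell by 2.20 ± 0.29 (adjusted p = 0.00127). Col3a1 fell by 2.04 ± 0.32 (adjusted p = 0.00237) and Col5a3 by 2.03 ± 0.29 (adjusted p = 0.00155). Col27a1 was the fibrillar gene that rose, with a log2 fold change of 0.73 ± 0.17 (adjusted p = 0.0114), a call lost without control replicate 3 at 10 weeks.

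Of the 8 basement membrane genes 4 fell, namely Col4a5, Col4a6, Col15a1 and Col18a1, and Col4a1 to Col4a4 did not pass. Col18a1 fell by 1.34 ± 0.20 (adjusted p = 0.00193) and Col4a5 fell by 0.91 ± 0.15 (adjusted p = 0.00297). Col4a1 differed by -0.48 ± 0.26 (adjusted p = 0.194). Of the 6 collagen VI genes 3 fell, Col6a1, Col6a2 and Col6a3, with log2 fold changes of -1.52, -1.53 and -1.62.

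Of the 9 fibril-associated genes 2 rose and 1 fell. Col9a1 rose by 1.05 ± 0.19 (adjusted p = 0.00405) and Col16a1 by 0.80 ± 0.16 (adjusted p = 0.00570). Col12a1, a collagen of tendon and loaded connective tissue, fell by 1.09 ± 0.31 (adjusted p = 0.0261), a call lost without control replicate 2 or without IUGR replicate 1 or 3 at 10 weeks. It was also lost with only the 6 libraries of that age. Of the 2 tested transcripts of Col12a1, the other, at -0.91, did not pass. Col8a2 fell by 1.61 ± 0.22 (adjusted p = 0.00142) and Col28a1 fell by 3.04 ± 0.50 (adjusted p = 0.00273). None of the 4 transmembrane collagens passed, with log2 fold changes from -1.31 for Col23a1 to 1.08 for Col25a1.

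The scaling bears on these counts. With library totals in place of TMM factors, an alternative added after the data were seen, the median of all transcripts moved by 0.81 and 8 collagen genes were higher and 5 lower, against 37.6% and 2.72% of all transcripts. Of the 19 calls 8 were kept, with Col1a1 (-2.43), Col1a2 (-1.49), Col3a1 (-1.29), Col5a3 (-1.37) and Col28a1 (-2.48) lower and Col9a1 (1.84), Col16a1 (1.55) and Col27a1 (1.54) higher. The 11 calls not kept, among them all 4 basement membrane calls, all 3 collagen VI calls, Col5a1, Col5a2 and Col8a2, kept their sign, and the values of Col4a1 to Col4a4, which had not passed, turned positive. Relative to that moved median, the collagen median of 0.30 and the fibrillar median of -0.45 were lower than all transcripts on this scale too. In unscaled CPM 8 collagen genes lay wholly above control (45.6% of transcripts) and 2 wholly below (2.91%), Col1a1 and Col28a1. With the acinar level entered in the model 12 genes were lower and 0 higher, against 5.99% and 1.80% of all transcripts, and Col4a5, Col4a6, Col9a1, Col15a1, Col16a1, Col18a1 and Col27a1 did not pass, with Col16a1 at -0.059. Acinar levels did not overlap between IUGR and control islets at either age, so that fit cannot tell the acinar level and IUGR apart. Without control replicates 1 and 3 at 10 weeks, the libraries with most acinar RNA, the control arm is replicate 2 alone, assumed to vary like the other groups. Then Col4a6, Col16a1 and Col27a1 did not pass, and no count of calls is given, since 1 library has no spread of its own. All 19 calls were kept when the acinar list and the 20 most abundant transcripts were left out of the table. The median of all transcripts moved by only 0.0015 there, so this setting hardly changed the scaling and tests little.

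**Figure D3:**
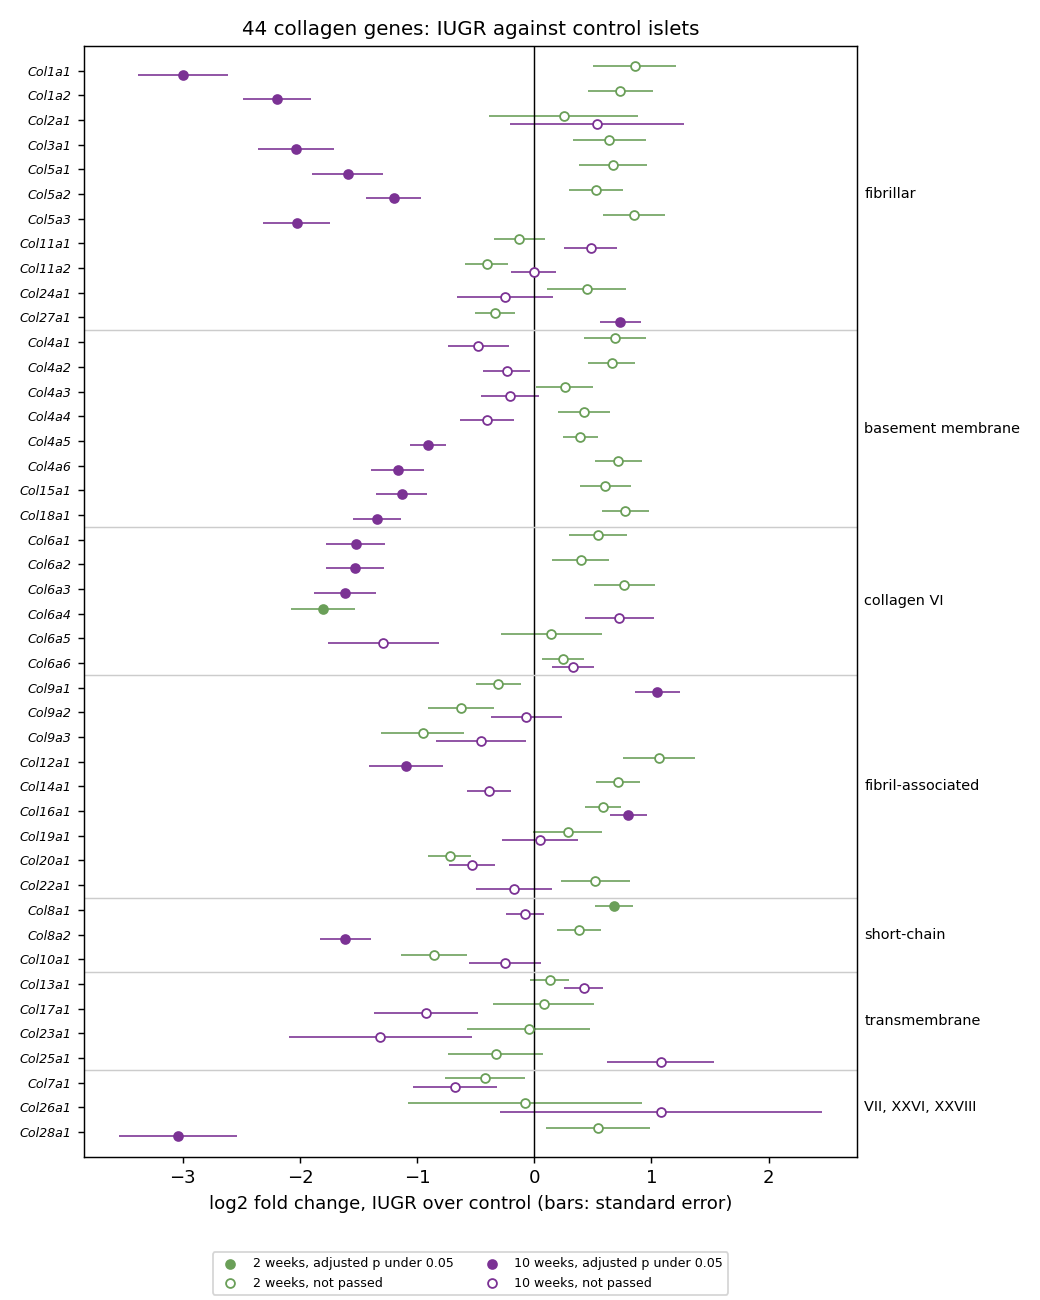
Log2 fold change of IUGR over control islets (horizontal axis, bars 1 standard error) for the 44 collagen genes at 2 weeks (green) and 10 weeks (purple), grouped by class, with filled points for an adjusted p under 0.05. At 10 weeks 16 filled points lie to the left and 3 to the right of 0, and at 2 weeks 1 lies on each side.

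At 2 weeks few collagen genes passed. The share of tested transcripts that passed was 3.88%, with 1.66% higher and 2.21% lower. Of the 44 collagen genes 1 rose and 1 fell. Col8a1 rose by 0.68 ± 0.16 on the log2 scale (adjusted p = 0.0486), and Col6a4 fell by 1.80 ± 0.27 (adjusted p = 0.0225). The median log2 fold change was 0.39 for the collagen genes against 0.05 for all transcripts, and 31 of the 44 values were above 0. In 20 genes all IUGR libraries lay above all controls, against 21.8% of transcripts, and in 4 all lay below, against 16.8%.

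The fibrillar genes had a median of 0.53 and the basement membrane genes of 0.63 at 2 weeks, and none of either class passed. Col1a1 differed by 0.86 ± 0.35 (adjusted p = 0.146), Col3a1 by 0.64 ± 0.31 (adjusted p = 0.200) and Col4a1 by 0.69 ± 0.26 (adjusted p = 0.126). Next in order of p were Col20a1 with -0.72 ± 0.18 (adjusted p = 0.0511), Col18a1 with 0.78 ± 0.20 (adjusted p = 0.0535), Col14a1 with 0.71 ± 0.19 (adjusted p = 0.0567) and Col16a1 with 0.59 ± 0.16 (adjusted p = 0.0579). At an unadjusted p under 0.05 there were 21 of 44 collagen genes, against 28.6% of all transcripts.

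The count depended on the fit, with 14 genes by DESeq2 (16.1% of all transcripts) and 0 by edgeR with the acinar level in the model, with only the 6 libraries of this age or with library totals alone, where the median of all transcripts moved by 0.43. At an unadjusted p under 0.05 these 3 fits had 5, 25 and 20 collagen genes. The shares of all transcripts at that threshold in these fits are not given, so the counts have no background to be read against. In unscaled CPM 25 genes lay wholly above control (57.9% of transcripts) and 2 wholly below (3.74%), Col6a4 and Col20a1. Col8a1 kept its call only without control replicate 3 at 2 weeks or control replicate 2 at 10 weeks when 1 library was left out, and Col6a4 lost its call without control replicate 1 or 2 or any IUGR library of this age.

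The effect of IUGR differed between the ages for 21 of the 44 collagen genes by the test of the difference itself, 3 with a higher and 18 with a lower effect at 10 weeks. Of all transcripts 14.3% passed this test, 3.97% higher and 10.4% lower. The median difference was -0.86 for the collagen genes and -0.00 for all transcripts. Col1a1 had the most negative value, -3.85 ± 0.52 (adjusted p = 0.00241), followed by Col28a1 with -3.58 ± 0.67 (adjusted p = 0.00733) and Col1a2 with -2.93 ± 0.40 (adjusted p = 0.00245). Col5a3 differed by -2.88 ± 0.39 (adjusted p = 0.00245), Col6a3 by -2.39 ± 0.37 (adjusted p = 0.00377), Col18a1 by -2.12 ± 0.28 (adjusted p = 0.00239) and Col8a2 by -1.99 ± 0.29 (adjusted p = 0.00304). Col6a4 had the highest value, 2.53 ± 0.40 (adjusted p = 0.00403), with Col9a1 at 1.36 ± 0.27 (adjusted p = 0.00904) and Col27a1 at 1.07 ± 0.24 (adjusted p = 0.0160). Fibrillar genes passed in 7 of 11 cases and basement membrane genes in 4 of 8, while Col4a1 (-1.16 ± 0.37, adjusted p = 0.0595) and Col4a2 (-0.90 ± 0.28, adjusted p = 0.0588) did not pass. With library totals alone 0 collagen genes and 26 transcripts in all passed by edgeR, and 19 collagen genes had an unadjusted p under 0.05, against 11.6% of all transcripts. The collagen median was then -0.46, with the median of all transcripts moved by 0.38.

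Between 2 and 10 weeks most collagen genes fell in control islets. Of all transcripts 32.3% passed, 17.2% higher and 15.1% lower. Of the collagen genes 3 rose and 28 fell, with a median log2 fold change of -1.04 against -0.00 for all transcripts. The 10-week libraries lay wholly below the 2-week libraries for 30 collagen genes (20.5% of transcripts) and wholly above for 3 (20.6%). Col1a1 fell by 2.44 ± 0.37 (adjusted p = 9.51e-04), Col1a2 by 2.43 ± 0.29 (adjusted p = 3.00e-04) and Col3a1 by 2.35 ± 0.33 (adjusted p = 6.02e-04). Col5a2 fell by 1.85 ± 0.24 (adjusted p = 4.15e-04), Col14a1 by 1.60 ± 0.19 (adjusted p = 3.12e-04), Col20a1 by 1.41 ± 0.19 (adjusted p = 4.87e-04) and Col6a6 by 1.39 ± 0.18 (adjusted p = 4.20e-04). Fibrillar genes fell in 9 of 11 cases, basement membrane genes in 5 of 8 and collagen VI genes in 5 of 6. Col4a1 fell by 0.86 ± 0.26 (adjusted p = 0.0292), a call lost without control replicate 2 or 3 at 2 weeks or control replicate 1 at 10 weeks, while Col15a1 differed by -0.04 ± 0.22 and Col18a1 by -0.33 ± 0.20 and did not pass. Col8a1, Col9a1 and Col27a1 rose, with log2 fold changes of 0.59, 0.60 and 0.91. The call of Col8a1 was lost without control replicate 1 or 2 at 2 weeks or control replicate 2 at 10 weeks, and that of Col9a1 without control replicate 1 or 2 at either age.

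In control islets the count of 31 calls was 20 with only the 6 control libraries, where Col8a1 and Col9a1 did not pass. The share of all transcripts in that fit is not given, so the count has no background to be read against. Col8a1 and Col9a1, among others, also lost their calls without 10-week control replicates 1 and 3. That fit leaves 1 library at that age, assumed to vary like the other groups, so no count is given. With library totals alone 28 genes fell and 0 rose (15.3% and 1.16% of all transcripts), with Col8a1 at -0.018 and Col9a1 at -0.037, and in unscaled CPM 19 genes lay wholly below (20.3% of transcripts) and 0 above (1.33%).

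In IUGR islets most collagen genes fell between 2 and 10 weeks as well. Of all transcripts 56.5% passed, 27.3% higher and 29.2% lower. Of the collagen genes 4 rose and 31 fell, with a median log2 fold change of -1.77 against 0.00 for all transcripts. The 10-week libraries lay wholly below for 31 genes (35.5% of transcripts) and wholly above for 4 (33.9%), and in unscaled CPM for 35 (46.8%) and 4 (22.7%). Col1a1 fell by 6.29 ± 0.45 (adjusted p = 3.10e-06), which is 78.5-fold, from a mean of 862 CPM to 10.98 CPM. Col1a2 fell by 5.36 ± 0.33 (adjusted p = 1.94e-06) and Col3a1 by 5.03 ± 0.37 (adjusted p = 3.47e-06). Col5a2 fell by 3.58 ± 0.26 (adjusted p = 3.28e-06), Col8a2 by 3.29 ± 0.22 (adjusted p = 2.42e-06) and Col4a5 by 2.22 ± 0.16 (adjusted p = 3.04e-06). All 8 basement membrane genes fell, from -1.03 for Col4a3 to -3.03 for Col4a6, with Col4a1 at -2.02 ± 0.27 (adjusted p = 1.09e-04). The fibrillar median was -3.58 and the basement membrane median -1.90. The 4 that rose were Col27a1 with 1.98 ± 0.18, Col9a1 with 1.95 ± 0.19, Col6a4 with 0.99 ± 0.28 and Col13a1, a transmembrane collagen, with 0.60 ± 0.17. Col6a4 and Col13a1 did not pass with library totals alone, where 2 genes were higher and 29 lower (4.80% and 19.6% of all transcripts), nor with the acinar level in the model. The test of the difference between the age effects is the one given above for IUGR, since the same 4 groups enter both. Each group of libraries enters 1 comparison by age and 1 by IUGR, so values of those comparisons are given side by side only.

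**Figure D4:**
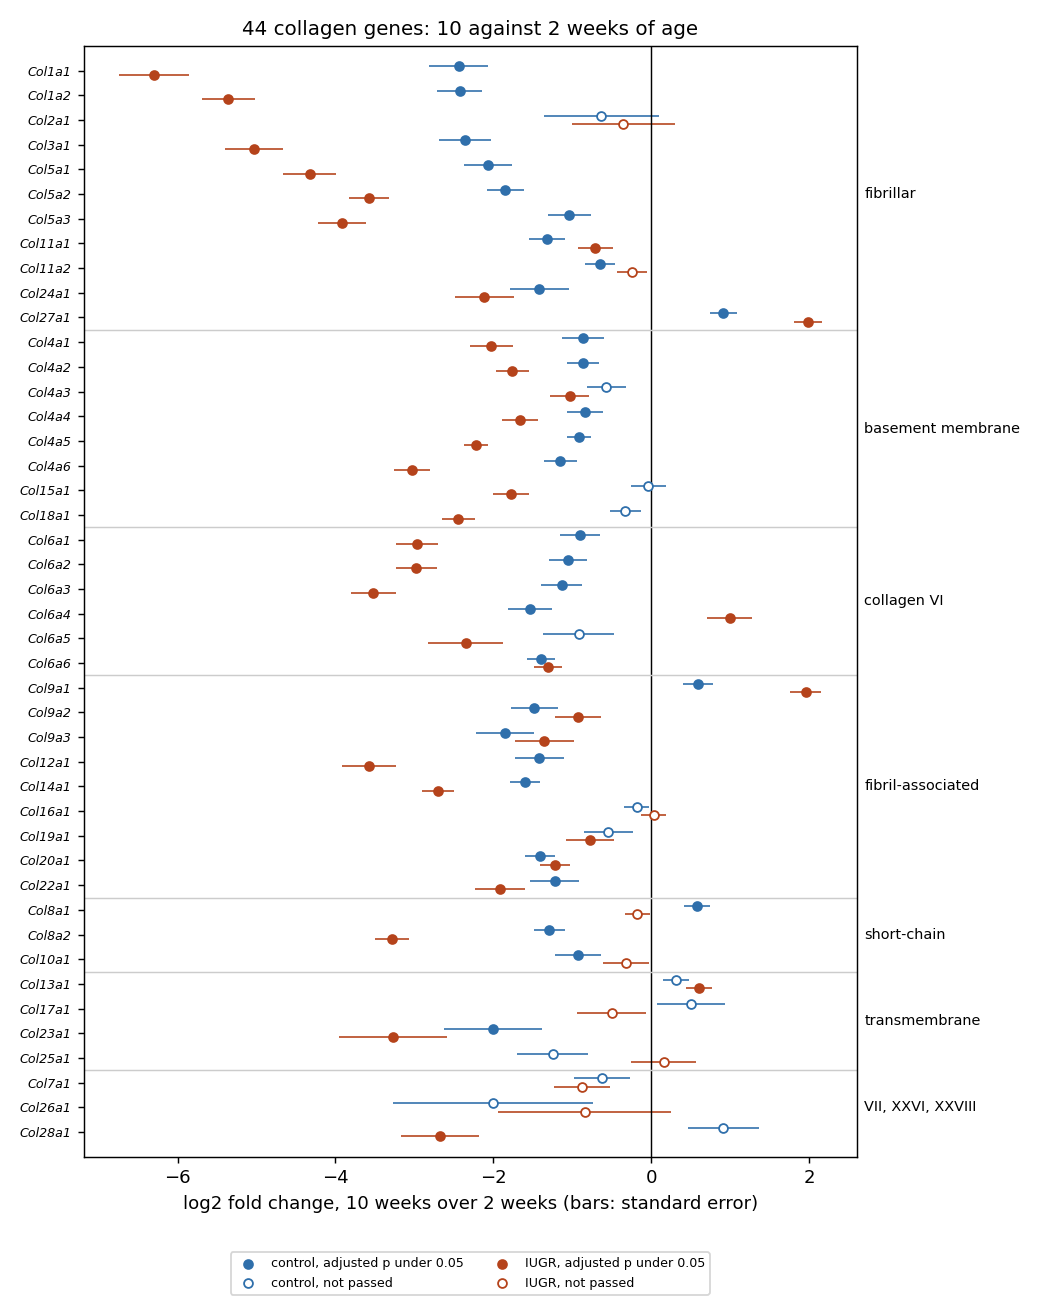
Log2 fold change of 10 weeks over 2 weeks (horizontal axis, bars 1 standard error) for the 44 collagen genes in control (blue) and IUGR (red) islets, grouped by class, with filled points for an adjusted p under 0.05. Col1a1 lies at -2.44 in control and -6.29 in IUGR islets, and Col27a1 lies to the right of 0 in both.

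Collagens are folded and modified in the endoplasmic reticulum before they are secreted. Of 20 genes for this step, 4 rose and 5 fell at 10 weeks in IUGR islets, and 6 rose and 0 fell at 2 weeks. For this list and those below, 12.4% of all transcripts rose and 15.5% fell at 10 weeks. At 2 weeks 1.66% of all transcripts rose and 2.21% fell. Calls on these lists rest on TMM scaling and were not repeated with library totals alone. With library totals the median of all transcripts moved by 0.81 at 10 weeks, so falls of about that size may depend on scaling. Serpinh1, the collagen chaperone HSP47, fell at 10 weeks by 0.96 ± 0.15 (adjusted p = 0.00197) and Fkbp10, a proline isomerase for procollagen, by 1.25 ± 0.23 (adjusted p = 0.00429). P4ha2, a prolyl hydroxylase, rose by 0.47 ± 0.09 at 10 weeks (adjusted p = 0.00554) and by 0.42 ± 0.09 at 2 weeks (adjusted p = 0.0442). Serpinh1 and the hydroxylase thus had opposite signs at 10 weeks.

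Outside the cell, collagens are trimmed and cross-linked. Of 14 genes for trimming and cross-linking, 0 rose and 8 fell at 10 weeks in IUGR islets, and 1 rose at 2 weeks, Loxl2 (0.80 ± 0.14, adjusted p = 0.0288). Loxl4, a lysyl oxidase, fell at 10 weeks by 3.40 ± 0.33 (adjusted p = 4.96e-04) and Loxl1, another, by 1.07 ± 0.18 (adjusted p = 0.00306). Loxl4 was low, at 0.222 to 0.374 CPM in the 10-week IUGR libraries. Bmp1, which cuts the ends off fibrillar procollagens, fell by 0.84 ± 0.15 (adjusted p = 0.00439). In IUGR islets between 2 and 10 weeks 13 of the 14 fell, against 29.2% of all transcripts.

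Of 11 collagen receptors, 7 fell at 10 weeks, led by the integrin chains Itga2 (-1.81 ± 0.32, adjusted p = 0.00352) and Itga1 (-1.02 ± 0.19, adjusted p = 0.00489). Of 15 laminins and other partners of type IV collagen, 9 fell at 10 weeks and 0 passed at 2 weeks. Lamc3 fell by 3.85 ± 0.41 (adjusted p = 5.79e-04) and Lamb2 by 1.27 ± 0.18 (adjusted p = 0.00160). Lamc3 was low, at 0.223 to 0.470 CPM in the 10-week IUGR libraries. Of 7 collagen-cleaving proteases 3 fell and 1 rose, with Mmp2 at -2.09 ± 0.26 (adjusted p = 0.00106) and Mmp14 at -1.36 ± 0.28 (adjusted p = 0.00633).

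Markers of several cell types that make collagen were among the genes that passed at 10 weeks. Of 13 fibroblast markers without collagens, 0 rose and 10 fell at 10 weeks in IUGR islets and 2 rose at 2 weeks. Their summed level was 715 to 1088 CPM in 2-week controls, 1255 to 1421 CPM in 2-week IUGR islets, 259 to 515 CPM in 10-week controls and 113 to 156 CPM in 10-week IUGR islets. Of 12 endothelial markers 9 fell at 10 weeks and 0 passed at 2 weeks, with summed levels of 549 to 907, 993 to 1189, 680.1 to 1160.2 and 459 to 634 CPM in the same order of groups. Of 10 smooth muscle and pericyte markers 4 fell at 10 weeks and 1 rose at 2 weeks, with sums of 879 to 1227, 1591 to 2353, 811 to 999 and 379 to 763 CPM. Of 8 Schwann cell markers 4 fell at 10 weeks, with sums of 18.2 to 37.6, 44.02 to 53.2, 11.9 to 31.8 and 7.22 to 8.29 CPM. Between 2 and 10 weeks in control islets, where 28 collagen genes fell, 9 of the 13 fibroblast markers fell and 0 rose. In that comparison 2 endothelial markers rose and 1 fell, 1 smooth muscle and pericyte marker rose and 1 fell, and 1 Schwann cell marker rose and 0 fell. Of all transcripts 17.2% rose and 15.1% fell with age in control islets. With age in IUGR islets 13 of 13 fibroblast and 8 of 8 Schwann cell markers fell. So did 10 of 12 endothelial and 9 of 10 smooth muscle and pericyte markers, and 0 markers of these cell types rose. In IUGR islets 27.3% of all transcripts rose and 29.2% fell with age. No marker on these lists was at 0 in all libraries, and their part in the collagen results was not tested. As for the lists above, the marker calls and sums rest on TMM scaling and were not repeated with library totals alone.

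Of 32 acinar markers 31 fell at 10 weeks and 4 at 2 weeks in IUGR islets, and their share of the counts in each group is given above. Of 9 endocrine markers, which define the labelled tissue and were present in every group, 3 rose at 10 weeks and 1 at 2 weeks. Their sum ran from 34483 to 64685 CPM in 2-week controls, 53576 to 69634 CPM in 2-week IUGR islets, 100779 to 147484 CPM in 10-week controls and 191238 to 202217 CPM in 10-week IUGR islets. Among 8 ductal markers 1 fell at 10 weeks, among 10 macrophage markers 3 fell and among 6 adipocyte markers 1 fell. The share of all transcripts that fell at 10 weeks was 15.5%. Within the 10-week controls, 23 collagen genes were highest in replicate 2, with the lowest acinar share, 16 in replicate 3, with the highest, and 5 in replicate 1. The values with the acinar level in the model, without both high libraries and without the acinar transcripts stand with the 10-week comparison.

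**Figure D5:**
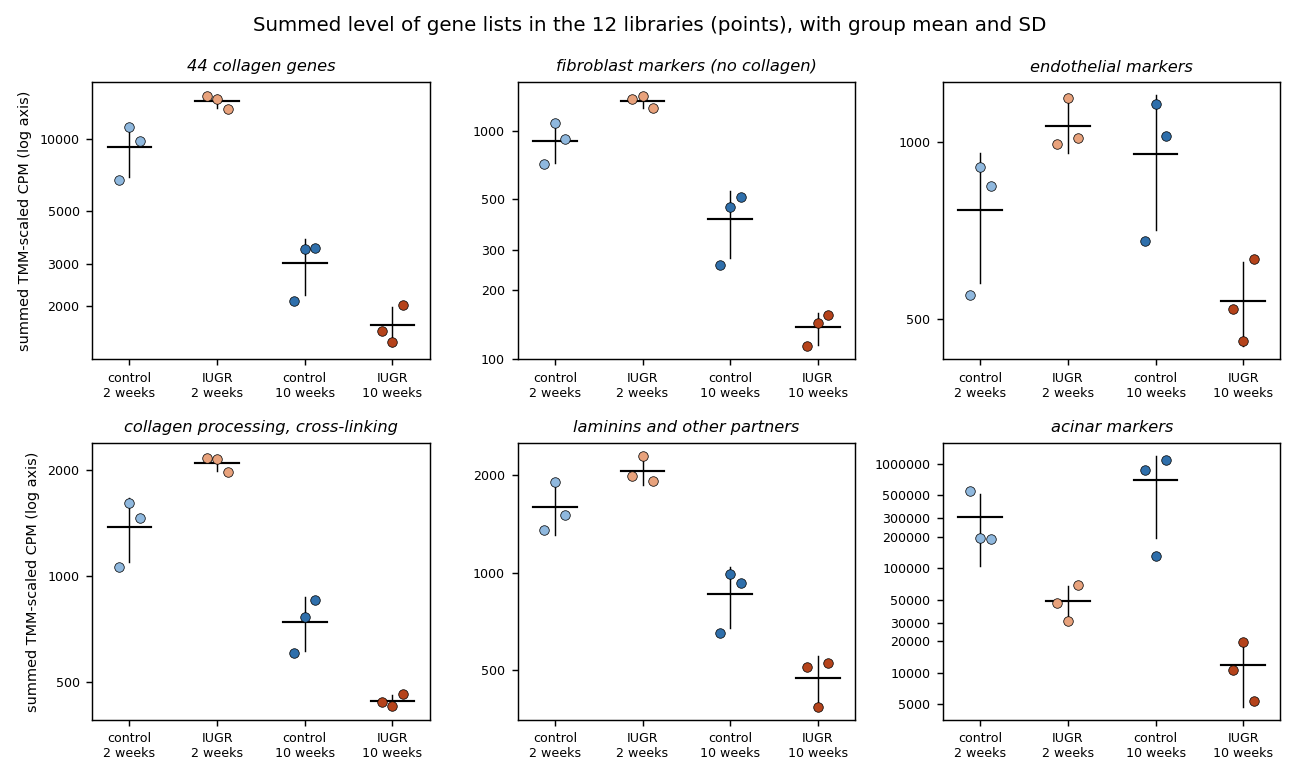
Summed TMM-scaled CPM on a log axis for the 44 collagen genes and 5 other gene lists in the 12 libraries. Points are libraries, horizontal lines group means and vertical lines 1 SD to each side (n = 3 per group), and a TMM factor well under 1 lifts the acinar sum of 10-week control replicate 3 above what an unscaled CPM can reach. The collagen, fibroblast, cross-linking and laminin sums are highest in 2-week IUGR and lowest in 10-week IUGR islets, and the acinar sum is lower in IUGR islets at both ages.

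Several collagen genes are neighbours on a chromosome in the RefSeq gene table. Col3a1 and Col5a2 had log2 fold changes of -2.04 and -1.20 at 10 weeks in IUGR islets, and Col6a1 and Col6a2 had -1.52 and -1.53. The members of the Col6a6, Col6a5 and Col6a4 cluster differed from one another, with 0.33, -1.29 and 0.72 at 10 weeks, none of which passed. Col9a1 and its neighbour Col19a1 had 1.05 and 0.05, of which Col9a1 alone passed. Neighbouring collagen genes thus had like values in some cases and unlike values in others.

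Promoter windows of 250 bases before to 50 after the start were at hand for 35 of the 44 collagen genes. The CCAAT letters, on either strand, were in 11 of the 35 windows (31.4%) against 39.6% of all 27457 windows, and the GC box letters GGGCGG, on either strand, were in 19 (54.3%) against 36.0%. By class, the GC box letters were in 6 of 8 fibrillar, 6 of 8 basement membrane and 7 of 19 other windows. Windows of Col4a1 and Col4a2 share 176 bases, so they are not separate cases. A match is a string of letters and not a bound site.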

How the data were processed

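Total RNA was sequenced from islets in 12 libraries, with a stranded kit that removes ribosomal RNA and a stated RNA integrity number above 7, per the labels' protocols. The authors deposited 1 table of whole-number counts for 30309 transcripts, and TopHat2 2.0.9 and bedtools are named in the submitters' processing notes, which give builds rn5 and mm9 without their roles. For the counting rule, strand setting and annotation, nothing is given in the sources used here, so reads of overlapping genes cannot be told apart. The highest-count transcript stood for each collagen symbol (35 had 1 transcript and 9 several).

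Counts were tested in R 4.3.3 with edgeR 4.0.16, using its filter on low counts, TMM factors, 1 fit of 4 groups, a robust quasi-likelihood test and Benjamini-Hochberg adjustment over 20733 transcripts. Standard errors were the size of the log2 fold change divided by the root of its F value. DESeq2 1.42.0, other factors and filters, omitted libraries, the acinar level as a covariate and a replicate block were alternatives. Scripts were tested on simulated counts. Tables were handled with Python 3.11.15 and pandas 2.3.3.

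Same-numbered libraries did not deviate together in every pair (correlations -0.14 to 0.48), so the fit has no pairing. Named were Col1a1, Col3a1, Col4a1, the 6 collagen genes of smallest p in each comparison and, of each other list, up to 4 genes of smallest p. Other collagen genes, Col27a1, Col9a1 and Col28a1 among them, were singled out after their values were seen. The members and lists were chosen with earlier results of these data known. Of 182 entries on 14 lists, 175 were found.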

Additional observations from a re-analysis of the deposited data

Results flagged for a closer look

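For 21 collagen genes the effect of IUGR at 10 weeks differed from that at 2 weeks by the test of the difference itself (edgeR quasi-likelihood, adjusted p under 0.05). Among fibrillar genes the difference, on the log2 scale, was -3.85 for Col1a1, -2.93 for Col1a2, -2.68 for Col3a1, -2.26 for Col5a1, -1.73 for Col5a2, -2.88 for Col5a3 and 1.07 for Col27a1. Among basement membrane genes it was -1.30 for Col4a5, -1.88 for Col4a6, -1.74 for Col15a1 and -2.12 for Col18a1. Among collagen VI genes it was -2.07 for Col6a1, -1.92 for Col6a2, -2.39 for Col6a3 and 2.53 for Col6a4, the last with 6 to 49 counts per library. The remaining values were -0.76 for Col8a1, -1.99 for Col8a2, 1.36 for Col9a1, -2.16 for Col12a1, -1.10 for Col14a1 and -3.58 for Col28a1. When 1 library was left out, Col8a1 lost its call in 10 of 12 cases, all but IUGR replicate 3 and control replicate 3 at 2 weeks, and Col14a1 in 4, namely IUGR replicates 1 and 2 at 2 weeks, control replicate 3 at 10 weeks and IUGR replicate 1 at 10 weeks. None of the 21 passed with library totals alone.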

How the results depend on the processing

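A count below has a background only where a share of all transcripts is given here or above for the same fit. At 2 weeks the 2 collagen calls (3.88% of all transcripts) became 14 with DESeq2 (16.1%), 1 with no filter on low counts and 12 at an adjusted p under 0.1. They became 0 with the acinar level in the model, with only the 6 libraries or with library totals alone. Leaving out both 10-week controls of most acinar RNA leaves 1 library in that group, so no count is given for it. With 1 library left out there were 0 to 7, with 0 without control replicate 1 or 2 or any IUGR library of that age, 7 without control replicate 3 and 6 without control replicate 2 at 10 weeks. At 10 weeks the 19 calls became 12 with the acinar level in the model, with Col16a1 turning to -0.059, and 13 with library totals alone. The 21 differences between ages became 0 with library totals alone. In controls the 31 age calls became 20 with only the 6 libraries and 16 without both acinar-rich controls, a comparison with 1 remaining library, and with library totals Col8a1 turned to -0.018 and Col9a1 to -0.037. Summing all transcripts of a symbol moved the fibrillar share at 2 weeks to 65.9% in controls and 66.7% in IUGR islets. Of 2463 values of called genes over the settings, 2286 kept direction and call, 174 lost the call and 3 turned. These settings include an adjusted p under 0.1 on the same fit, where no call can be lost. They also include leaving out libraries of groups that a comparison does not use, so the total is not a measure of robustness. Leaving out the acinar list and the 20 most abundant transcripts kept all 2, 19, 21, 31 and 35 calls and added Col7a1 in the age comparison of IUGR islets. That setting moved the median of all transcripts by 0.024 at 2 weeks and 0.0015 at 10 weeks, so it tests little. A replicate block, whose numbers do not pair the libraries, gave 4 calls at 2 weeks, 19 at 10 weeks, 22 differences between ages and 33 and 35 age calls. Depth limits the 6 genes with fewer than 10 counts in a library, Col26a1 among them.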
